A study of Homo sapiens with 28 samples.

Results

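SK-N-MC cells, an established line of Ewing sarcoma, were measured 48 h after induction of shCHD4#1, the first of 2 short hairpin RNAs against CHD4, and compared with the same line carrying a scrambled hairpin. The comparison takes the 3 shCHD4#1 libraries and the 5 shScramble libraries of 48 h by their names, 8 of the 28 samples of the series. All cultures, controls included, were the line SKNMC with a doxycycline-inducible hairpin and received doxycycline at 100 ng/ml for the stated time. No library without doxycycline was analysed here, so a difference between the hairpin-carrying lines themselves and an effect of CHD4 loss cannot be told apart. The 3 shCHD4#2 libraries of 48 h, with the second CHD4 hairpin, and the 3 shCHD4#1 and 5 shScramble libraries of 24 h serve for comparison. For the scrambled controls of 48 h, the genotype field names a CHD4 knockdown although title and treatment name shScramble, so the titles were used for grouping.

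CHD4 is the motor ATPase of NuRD, a complex for nucleosome remodelling and histone deacetylation, which slides nucleosomes while its HDAC1 and HDAC2 subunits remove acetyl groups from histones. The complex is known above all for keeping genes of other lineages silent, and it also works at active enhancers and at sites of DNA damage. Ewing sarcoma is driven by a fusion of EWSR1 with an ETS gene, in most tumours FLI1, whose protein EWS-FLI1 activates enhancers at GGAA repeats. A short hairpin is processed into a small RNA that can also lower transcripts other than its target through partial base pairing, which is why a second hairpin is used beside the first.

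The 8 libraries held 47972710 to 59691401 reads, recovered as whole reads from the deposited normalised counts. The share of mitochondrial ribosomal RNA was 16.3 to 19.5 percent with shCHD4#1 and 16.2 to 17.98 percent in the controls. Libraries fell into 2 kinds, replicates 1 and 2 against the later ones: processed pseudogenes took 0.436 to 0.499 percent of reads in the first kind and 0.339 to 0.361 percent in the second, in both groups. shCHD4#1 has 2 libraries of the first kind and 1 of the second, and shScramble 2 and 3. Values below are normalised counts, reads divided by 1 size factor per library, which compare libraries but not genes of different length. Fold changes are log2 differences of the value plus 1, with limma's standard error and its Benjamini-Hochberg adjusted p over 21025 genes, and a gene is called where that p is under 0.05. These are bulk samples, so fewer cells of a kind and less RNA per cell cannot be told apart.

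CHD4 itself measured 2959, 3126 and 3482 in the shCHD4#1 libraries and 9343, 10706, 13100.0, 12773 and 12105 in the shScramble libraries. Every shCHD4#1 library lay below every control. The means were 3189 ± 267 (SD, n = 3) and 11605 ± 1563 (SD, n = 5), a fall of 3.62-fold (log2 -1.86, SE 0.10, adjusted p = 9.38e-08). With shCHD4#2 CHD4 measured 2722, 2801 and 2727, and the hairpins did not differ in it by the test (adjusted p = 0.164, log2 difference 0.21, SE 0.11). At 24 h the fall with shCHD4#1 was already -1.95 on the log2 scale. The CHD4 gene (chromosome 12, 6570082 to 6614524, minus strand, GENCODE release 29 on GRCh38) overlaps a protein-coding model on its own strand, AC006064.6, which moved with it (log2 -1.342) and may share its reads.

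With shCHD4#1, 2707 genes rose and 3258 fell at 48 h, 12.9 and 15.5 percent of those tested. Counts of list members called in this fit, given below, are to be read beside these shares. At least 2-fold, 1049 genes (4.99 percent) rose and 667 (3.17 percent) fell, an order that turned to 839 and 892 with quantile normalisation and to 278 and 355 among the 14216 genes with a mean of at least 100. For 6545 genes (31.1 percent) all 3 shCHD4#1 values lay outside the range of the 5 controls. Among protein-coding genes the direction went with the level. Of 2345 with a mean of 10 to 100 over the whole series, 506 rose and 185 fell, whereas of 7281 with a mean of 1000 to 10000, 714 rose and 1597 fell. Of the 655 most abundant, above 10000, 21 rose and 182 fell. These levels include the knockdown libraries, as does the choice of genes tested. A gene barely present in the controls could thus enter the lowest range because it rose. A gene already near the floor has little room to fall. Part of the excess of rises at low levels may therefore come from this choice. Without shCHD4#1 replicate 2 the test gave 1684 rises and 2015 falls, and within the first library kind alone (2 libraries against 2) 604 and 611. The plot of fold change against level shows the widening of the rises towards low levels.

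**Figure D1:**
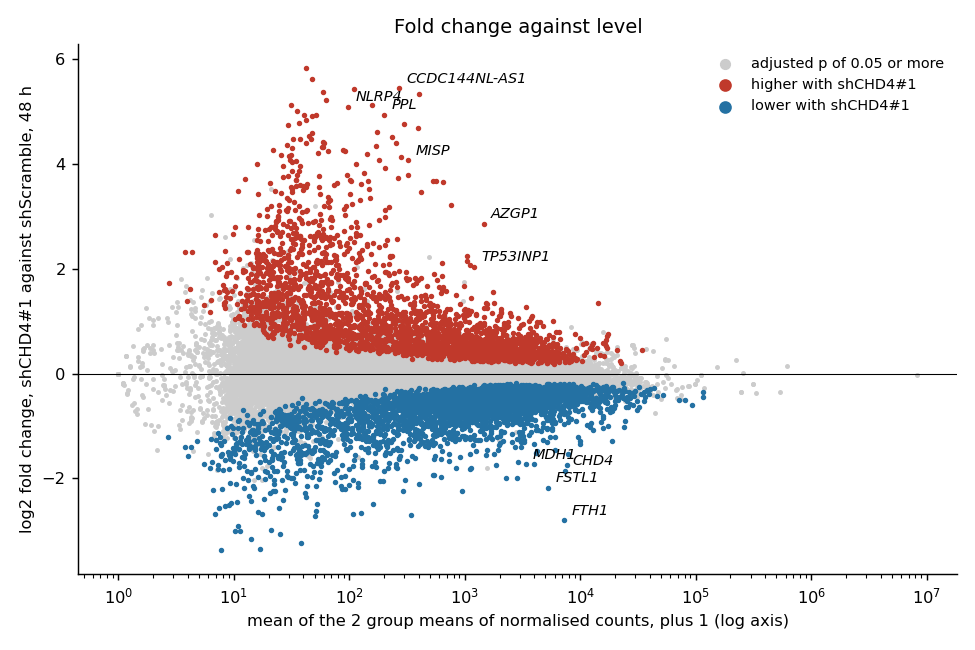
Each point is 1 of 21025 genes, with the mean of both group means of normalised counts plus 1 on a log axis and the log2 fold change of shCHD4#1 against shScramble at 48 h on the other. Red points are the 2707 called higher and blue points the 3258 called lower. The large rise of PPL lies at a lower level than the large fall of FTH1. Large falls such as those of SEMA4F and C1QL1 lie at low levels too.

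Classes of transcript differed in their balance of rises and falls, but they were not matched for level. Protein-coding genes with a mean of 10 to 100 alone stood at 21.6 percent up and 7.89 percent down of 2345. All annotated classes other than protein-coding together gave 12.3 percent up and 7.53 percent down of 6241. Of 1555 long intergenic RNAs tested, 17.2 percent rose and 8.3 percent fell, and of 648 unprocessed or unitary pseudogenes 19.6 percent rose and 5.86 percent fell. Antisense transcripts stood at 12.9 and 9.43 percent of 1590 and processed pseudogenes at 3.75 and 5.81 percent of 826. Protein-coding genes showed more falls than rises, 13.1 percent up and 19.1 percent down of 14343. They made up 61.7 percent of genes at least 2-fold higher, and long intergenic RNAs another 16.6 percent. Because strand use in read counting is not given in the sources used here, reads of an antisense transcript and of its partner cannot be told apart.

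The 12 largest rises were taken among called genes with a mean of at least 100 in the higher group and no overlap with the controls, so they passed through their shCHD4#1 values and their separation from the controls was fixed by the choice. Of these 12, 9 were not protein-coding. The largest was CCDC144NL-AS1, an antisense transcript on chromosome 17 that also spans CCDC144NL. It measured 689, 566 and 327 with shCHD4#1 and 5.09 to 20.54 in the 5 controls, a rise of 43.6-fold (log2 5.45, SE 0.42, adjusted p = 1.58e-06). The long intergenic RNA LINC00408 followed with 329, 145 and 161 against 1.03 to 7.14 (log2 5.43, SE 0.54, adjusted p = 1.23e-05). Next came AC007923.1, at 216.8, 64.3 and 63.2 against 0 to 6.25 (log2 5.37, SE 1.00, adjusted p = 0.00126), whose call was lost within the first library kind alone (adjusted p = 0.079). The pseudogene AACSP1, a relic of an acetoacetyl-CoA synthetase copy, measured 1032, 804 and 504 against 10.3 to 30.4 (log2 5.35, SE 0.73, adjusted p = 0.000136).

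The 3 coding genes among those 12 were NLRP4, PPL and ZNF208. PPL encodes periplakin, a linker of desmosomes and intermediate filaments in stratified epithelium. It measured 349.6, 432 and 375 with shCHD4#1 and 8.04 to 17.3 in the controls (log2 4.95, SE 0.66, adjusted p = 0.000103). NLRP4, a member of the NLR family known from the germline, measured 110.5, 286 and 166 against 1.09 to 12.4 (log2 5.10, SE 0.55, adjusted p = 2.41e-05). ZNF208, a KRAB zinc finger gene of a cluster on chromosome 19, measured 484, 747 and 495 against 12.2 to 30.4 (log2 4.77, SE 0.31, adjusted p = 7.08e-07). PPL was high with shCHD4#2 too, at 295, 150.0 and 179, and the hairpins did not differ in it by the test (adjusted p = 0.335, log2 difference 0.94). NLRP4 and ZNF208 differed: with shCHD4#2 they measured 5.42 to 9.51 and 36.9 to 90.3, and shCHD4#1 was higher by 4.35 and 3.38 on the log2 scale (adjusted p = 0.000137 and 1.46e-05).

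Markers of other lineages were among the called genes, in small numbers. Of 20 epithelial genes tested 5 rose and 2 fell (median log2 0.22, against -0.01 over all genes). MISP, an actin-bundling protein of mitotic cells and microvilli, measured 536, 655 and 636 against 33.0, 63.9, 27.5, 31.7 and 28.4 in the controls (log2 4.08, SE 0.30, adjusted p = 1.2e-06). The tight junction gene CLDN4 rose by 3.03 and the keratin gene KRT19 by 2.63, while the keratin KRT18 stood at 5000.5 to 6963 against 8639 to 12854. The epithelial adhesion genes that define the lineage stayed near 0: EPCAM measured 2.92 to 8.89 with shCHD4#1 and 0.893 to 9.16 in the controls, CDH1 2.49 to 7.79 and 1.03 to 6.54. Summed over the 33 epithelial genes in the table the level was 22166 to 30564 against 25311 to 34134, so that the ranges overlapped. Without shCHD4#1 replicate 2 the list had 1 fall, and without shScramble replicate 1 it had 4.

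Of 16 striated muscle genes, 5 rose and 4 fell (median log2 0.37). DES, the intermediate filament of muscle, measured 98.8, 118 and 78.1 with shCHD4#1 and 0 to 14.4 in the controls (log2 4.22, SE 0.67, adjusted p = 0.000384). RYR1, the calcium release channel of skeletal muscle, measured 122, 203 and 217 against 7.63 to 53.6 (log2 3.42, adjusted p = 0.000165). Against them the troponin gene TNNT1 fell by 0.95. The summed level of the 24 muscle genes in the table was 4967 to 5972 with shCHD4#1 and 5808 to 7022 in the controls. The list had 2 falls without shCHD4#1 replicate 2, and likewise without replicate 3.

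Germline genes moved in 1 direction where they moved: 5 of 13 rose and 0 fell (median log2 0.30), with 0 falls in each fit that left out 1 library. The cancer-testis antigen MAGEC2 measured 139, 244 and 179 against 11.2 to 36.6 (log2 3.23, SE 0.40, adjusted p = 6.77e-05). CTCFL, the testis paralogue of the insulator protein CTCF, rose by 2.12, PRAME by 1.11 and MAGEA3, which has close paralogues that can share its reads, by 1.13. The meiotic genes SYCP2 (log2 0.21, adjusted p = 0.436) and STAG3 (log2 0.18, adjusted p = 0.628) were not called. Of 24 neuronal genes 3 rose and 4 fell (median log2 0.00), shares near the 12.9 and 15.5 percent of all genes, and 5 rose with library kind as a term. Of single members NCAM1, a cell adhesion molecule, rose by 2.28 and CHGA, a granule protein of neuroendocrine cells, by 1.36, whereas SCG2, another granule protein, fell by 1.67 and MAP2, a dendritic microtubule protein, by 1.99.

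Ion channel genes gave one of the higher shares of rises. Of 22 calcium and potassium channel genes, 8 rose and 2 fell (median log2 0.12). CACNA1B, the pore of N-type calcium channels, measured 311, 317 and 272 against 37.1 to 83.1 (log2 2.42, SE 0.29, adjusted p = 4.78e-05). CACNA2D2, an auxiliary calcium channel subunit, measured 203, 209 and 226 against 30.5 to 59.8 (log2 2.37, SE 0.21, adjusted p = 5.16e-06). KCNH2, a delayed rectifier potassium channel of the heart, measured 1786, 2407 and 2331 against 638 to 1136, and the T-type channel gene CACNA1G rose by 1.13. With shCHD4#2 the same list gave 4 rises and 7 falls, beside 17.5 and 20.3 percent of all genes. The direct test of the hairpins called 8 members higher and 1 lower with shCHD4#1, in all close to the 37.9 percent of all genes that it called (19.2 percent higher, 18.6 percent lower). The list had 6 rises and 1 fall without shCHD4#1 replicate 2, and 4 falls with library kind as a term.

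Among abundant genes the rises with the smallest adjusted p were TP53INP1, ASAP3, HIPK2, AZGP1, SYT2 and MYRF. TP53INP1, a p53-induced regulator of autophagy and cell death, measured 1712, 2024 and 2042 with shCHD4#1 and 396, 622, 505, 394 and 445 in the controls (log2 2.04, SE 0.14, adjusted p = 7.08e-07). With shCHD4#2 it went the other way, to 215, 229 and 205, below every control. AZGP1, a secreted zinc-binding glycoprotein, measured 2268, 2539.9 and 2896 against 219 to 493 (log2 2.86, SE 0.22, adjusted p = 1.9e-06). ASAP3, an ARF GTPase-activating protein, measured 2298, 2855 and 2744 against 803 to 950.1 (log2 1.56, SE 0.11, adjusted p = 1.1e-06) and 2311 to 2594 with shCHD4#2. HIPK2, a kinase upstream of p53, rose by 1.16, and SYT2, a synaptic calcium sensor, by 2.08 with no call for shCHD4#2 (log2 0.08, adjusted p = 0.724). The plot of values by library shows TP53INP1 with the hairpins on opposite sides of the controls.

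**Figure D2:**
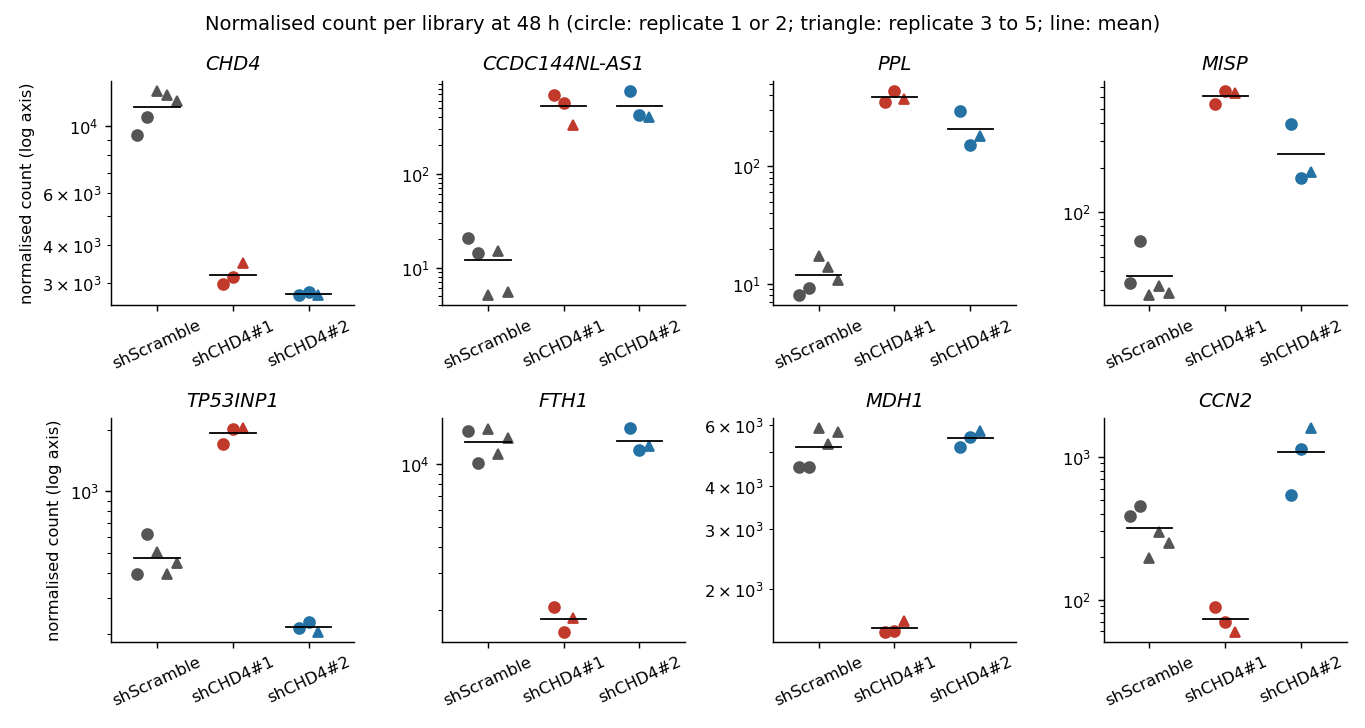
Normalised count per library at 48 h on a log axis for 8 genes, in 5 shScramble, 3 shCHD4#1 and 3 shCHD4#2 libraries. Circles are replicates 1 and 2, triangles later replicates and lines group means. CHD4 was low with both hairpins, CCDC144NL-AS1, PPL and MISP were high with both, and FTH1 and MDH1 were low with shCHD4#1 and not with shCHD4#2.

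The largest falls were of another kind, abundant coding genes among them. FTH1 encodes the ferritin heavy chain, which stores iron. It measured 2059.7, 1567 and 1820.2 with shCHD4#1 and 14362, 10151, 14710.0, 11128 and 13360.0 in the controls, a fall of 6.98-fold (log2 -2.80, SE 0.14, adjusted p = 7.23e-08). With shCHD4#2 it measured 14915, 11732 and 12166, within or just above the control range, and the hairpins differed by -2.83 (adjusted p = 1.96e-07). At 24 h FTH1 had already fallen by 2.56, and there too the hairpins differed (log2 -2.25, adjusted p = 4.04e-05). FTH1 has many near-identical processed pseudogenes that can take its reads. Of 12 found, 6 were tested and 3 of these fell, with a summed level of 26.7 to 83.1 against 111 to 382.

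C17orf58, an uncharacterised gene, measured 92.2, 78.9 and 97.8 against 511 to 739 (log2 -2.71, SE 0.13, adjusted p = 7.23e-08) and 389 to 459 with shCHD4#2. ISOC1, a protein with an isochorismatase domain, measured 257, 356 and 381 against 1164 to 1885 (log2 -2.24, SE 0.18, adjusted p = 2.08e-06) and 996.5 to 1247 with shCHD4#2. Both were called lower than with shCHD4#2 in the direct test, by 2.26 and 1.76 on the log2 scale. FSTL1, a secreted glycoprotein of mesenchymal cells, measured 2946, 1117 and 1852 against 6058 to 11537 (log2 -2.18, SE 0.27, adjusted p = 6.96e-05) and 7158 to 9144 with shCHD4#2. The MIR198 entry, which lies inside FSTL1 on the same strand and can share its reads, measured 21.4 to 33.2 against 121 to 254. These libraries count total RNA, not mature microRNA. EMILIN3, an elastin-associated matrix protein, fell by 2.67, the semaphorin SEMA4F by 2.20, the exchange factor ARHGEF5, which has near-identical copies, by 2.18 and C1QL1, a secreted C1q-like protein of neurons, by 2.15.

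Falls with the smallest adjusted p among abundant genes included MDH1, MAGT1, POLR2K and JPT2 besides FTH1 and CHD4. MDH1, the cytosolic malate dehydrogenase, measured 1506, 1518 and 1619 against 4519 to 5881 (log2 -1.74, SE 0.10, adjusted p = 9.38e-08). MAGT1, a magnesium transporter and oligosaccharyltransferase subunit, measured 2374, 2269 and 2123 against 5961 to 6680.5 (log2 -1.47, SE 0.09, adjusted p = 1.75e-07). POLR2K, a small subunit shared by the RNA polymerases, measured 478, 510.1 and 487 against 1488 to 1939 (log2 -1.81, SE 0.12, adjusted p = 7.08e-07). With shCHD4#2 these 3 genes measured 5166 to 5744, 5673 to 6601 and 1576 to 1904, inside or near the control ranges (log2 0.09, -0.04 and 0.04). JPT2 fell with both hairpins, by 1.46 with shCHD4#1 and by 0.70 with shCHD4#2.

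Promoters are shown for 2 genes of the large rises, MISP and ZNF208, and 2 of the large falls, C17orf58 and ISOC1, so that the CpG content on both sides can be seen. Each is the 250 bases before the RefSeq start on GRCh38.p14, read 5′ to 3′ on the gene's strand, with every CG in capitals.
MISP promoter (chr19:750862-751111, plus strand): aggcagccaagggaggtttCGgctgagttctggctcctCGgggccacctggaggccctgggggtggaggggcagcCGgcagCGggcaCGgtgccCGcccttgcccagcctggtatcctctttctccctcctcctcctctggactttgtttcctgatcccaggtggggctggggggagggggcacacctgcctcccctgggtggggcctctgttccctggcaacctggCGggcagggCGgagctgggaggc
ZNF208 promoter (chr19:22010944-22011193, minus strand): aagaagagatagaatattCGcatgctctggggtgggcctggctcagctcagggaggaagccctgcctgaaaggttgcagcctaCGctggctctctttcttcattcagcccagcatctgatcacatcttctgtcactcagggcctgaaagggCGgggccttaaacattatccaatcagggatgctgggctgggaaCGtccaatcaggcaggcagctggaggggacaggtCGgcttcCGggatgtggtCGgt
C17orf58 promoter (chr17:67996470-67996719, minus strand): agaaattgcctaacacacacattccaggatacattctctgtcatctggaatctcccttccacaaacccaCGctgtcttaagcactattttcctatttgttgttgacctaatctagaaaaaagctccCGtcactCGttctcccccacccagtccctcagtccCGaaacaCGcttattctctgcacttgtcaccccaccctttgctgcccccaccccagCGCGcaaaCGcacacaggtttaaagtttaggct
ISOC1 promoter (chr5:129094499-129094748, plus strand): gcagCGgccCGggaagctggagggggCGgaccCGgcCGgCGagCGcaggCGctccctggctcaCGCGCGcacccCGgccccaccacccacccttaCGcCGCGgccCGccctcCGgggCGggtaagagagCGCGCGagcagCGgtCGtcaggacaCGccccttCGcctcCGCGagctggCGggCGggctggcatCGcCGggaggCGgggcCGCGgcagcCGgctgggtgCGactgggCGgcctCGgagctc
They hold 8, 7, 8 and 38 CG pairs, and among 35116 windows of this length the median was 11 with quartiles of 3 and 23. Over whole sets this comparison is void, since the table holds a promoter for 77.8 percent of the coding genes tested and 68.3 percent of those at least 2-fold higher.

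The direct comparison of the hairpins, which uses no control library, called 7963 genes (37.9 percent), 4046 higher and 3917 lower with shCHD4#1 than with shCHD4#2. Against the shared controls, shCHD4#2 gave 3688 rises (17.5 percent) and 4276 falls (20.3 percent). Of the 12 largest rises with shCHD4#1, 5 differed between hairpins by this test, and of the 12 largest falls 11 did, all but C1QL1. Those 24 genes were picked by their shCHD4#1 values at 48 h, which favours a smaller value with the other hairpin. The 24 h libraries had no part in the choice. There the test called 2022 genes (9.62 percent), and 3 of the 12 rises and 7 of the 12 falls differed between the hairpins in the same direction, among them FTH1, C17orf58 and ISOC1. Over all genes the hairpin difference at 48 h and that at 24 h had a Pearson r of 0.784 (21025 genes, of the same lines in separate libraries). No sequence of either hairpin was used here, so a match of shCHD4#1 to FTH1, MDH1 or the others was not tested.

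**Figure D3:**
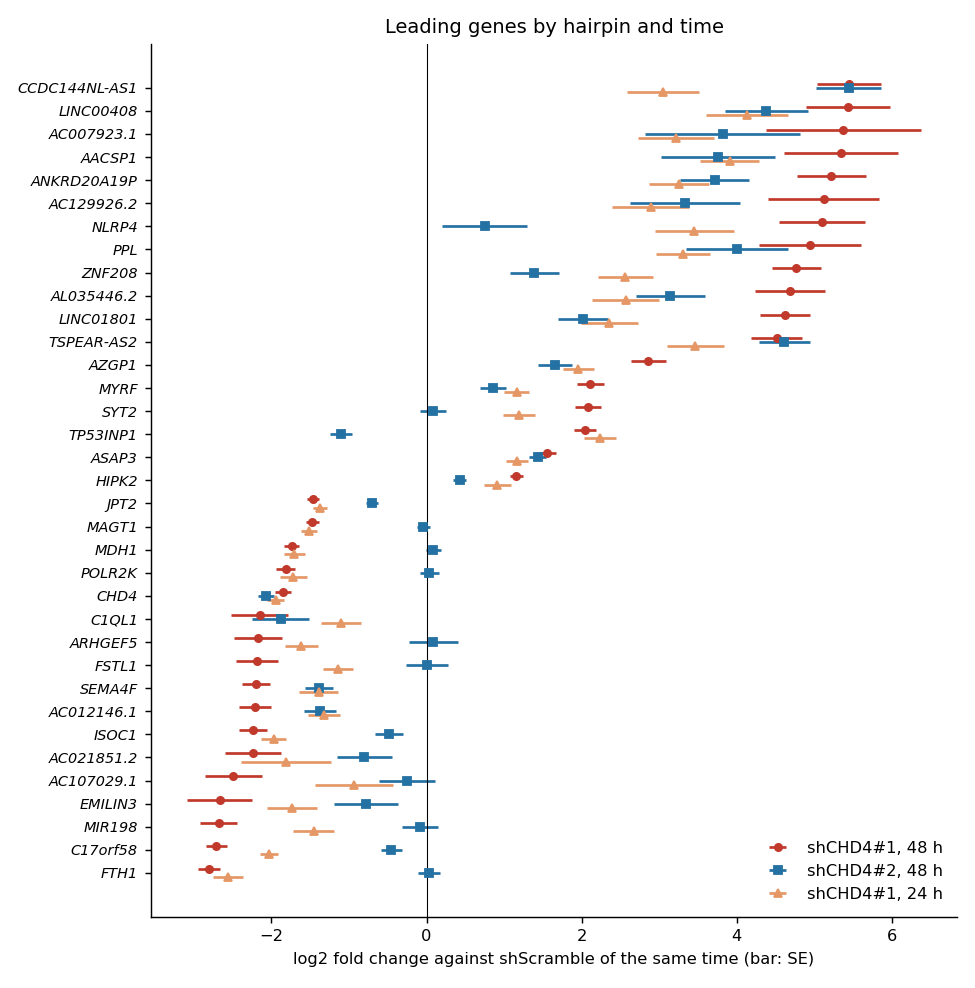
Log2 fold change against shScramble of the same time, with its standard error, for the leading rises and falls with shCHD4#1. The 48 h values of both hairpins share control libraries. With shCHD4#2 FTH1, MDH1, MAGT1, POLR2K and FSTL1 lay within 0.10 of 0, while CCDC144NL-AS1 and CHD4 moved with both hairpins.

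The largest differences between the hairpins ran both ways. GNG12, a G protein gamma subunit, measured 101.3, 29.2 and 28.7 with shCHD4#1, 23.7 to 123 in the controls and 631, 867 and 859 with shCHD4#2 (log2 difference -4.11, SE 0.52, adjusted p = 5.69e-05). The groups with shCHD4#1 and shScramble overlapped, and the high values were all with shCHD4#2. CCN2, a matricellular target of YAP signalling, measured 88.9, 70.1 and 59.3 with shCHD4#1, 195 to 452 in the controls and 543, 1130.2 and 1597 with shCHD4#2, so that the hairpins lay on opposite sides (log2 difference -3.77, adjusted p = 5.98e-06). DGKG, a diacylglycerol kinase, measured 196, 197 and 124 with shCHD4#1, 21.6 to 32.7 in the controls and 2.71 to 19.0 with shCHD4#2 (log2 difference 4.08, adjusted p = 5.14e-05). ELMO1 and MIR1-1HG were likewise higher than with shCHD4#2, by 4.05 and 4.02.

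Within the NuRD complex, 1 of 15 subunit genes rose and 4 fell, CHD4 included, beside 12.9 and 15.5 percent of all genes. HDAC1 measured 3646, 4161 and 4832 against 5074 to 6770.1 (log2 -0.59, SE 0.11, adjusted p = 0.00132). The scaffold gene MTA1 fell by 0.42. GATAD2B, a scaffold that binds CHD4, rose by 0.64, and the paralogue CHD3 was not called (log2 -0.10, adjusted p = 0.479). FLI1 and EWSR1, whose reads include the fusion transcript, were not called (log2 -0.12, adjusted p = 0.47, and log2 -0.28, adjusted p = 0.058). EWSR1 was called lower with library kind as a term (log2 -0.21, adjusted p = 0.0257), in the second library kind alone (adjusted p = 0.0311), without shScramble replicate 1 (adjusted p = 0.0449) or 2 (adjusted p = 0.0199) and with DESeq2 (adjusted p = 0.0381). Ewing markers were present at high level: CD99 measured 6042 to 6389 with shCHD4#1 and 6106 to 7744 in the controls, and NKX2-2 2071 to 3518 and 2279 to 3195.

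Of 41 EWS-FLI1 activated targets, 12 fell and 0 rose with shCHD4#1 (median log2 -0.25). NPY1R, a neuropeptide Y receptor, measured 1054, 936 and 1016 against 2059 to 2547 (log2 -1.20, SE 0.15, adjusted p = 7.52e-05). The neonatal Fc receptor gene FCGRT fell by 0.95 and the metalloreductase gene STEAP1 by 0.89. With shCHD4#2 the list gave 24 falls and 1 rise, beside 20.3 percent falls and 17.5 percent rises over all genes. By the direct test 17 members were higher and 4 lower with shCHD4#1, beside 19.2 and 18.6 percent of all genes. Among these, CCND1, the G1 cyclin, was not called with shCHD4#1 (log2 -0.61, adjusted p = 0.0931) and lay at -3.09 with shCHD4#2. Of 33 EWS-FLI1 repressed targets 2 rose and 5 fell with shCHD4#1, beside 12.9 and 15.5 percent of all genes. CDKN1C, a CDK inhibitor, measured 497, 789 and 733 against 176 to 367 (log2 1.44, adjusted p = 0.000191), and VIM, the mesenchymal filament vimentin, 10623, 9003 and 11122 against 16862 to 24171 (log2 -1.03, adjusted p = 0.000219). The list had 3 falls without shCHD4#1 replicate 2, and without replicate 3, or with the replicate number as a block, it had 1 rise.

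Genes of cell division were called in 1 direction, by small amounts. Of 34 mitosis genes 19 fell and 0 rose (median log2 -0.40), and of 34 DNA replication and E2F genes 16 fell and 0 rose (median log2 -0.33). KIF11, a spindle motor, measured 6018, 4859.7 and 5585 against 8038 to 9530.4 (log2 -0.68, SE 0.09, adjusted p = 0.000139). CDK2, the S phase kinase, measured 2688, 3064 and 3049.5 against 4279 to 4471 (log2 -0.58, SE 0.08, adjusted p = 0.000105). The clamp loader gene RFC4 fell by 0.65 and the ribonucleotide reductase gene RRM1 by 0.48. In each fit that left out 1 library, 13 to 25 mitosis genes and 11 to 20 replication genes fell and 0 rose. Within the first library kind, 1 mitosis and 3 replication genes fell (611 of all genes), with medians of -0.207 and -0.245. Within the second, which has 1 shCHD4#1 library, the medians were -0.533 and -0.296. With library kind as a term 22 mitosis and 17 replication genes fell. Of 32 DNA repair genes 14 fell and 1 rose. XRCC6, the Ku70 subunit of end joining, measured 11521, 11166 and 11832 against 20341 to 25995 (log2 -1.005, SE 0.09, adjusted p = 8.04e-06), and it was lower than with shCHD4#2 (log2 difference -0.82, adjusted p = 6.74e-05). Among repair genes 9 fell and 0 rose without shCHD4#1 replicate 2, and 0 rose also without replicate 3 and with the replicate block.

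The count of histone genes called moved with the libraries included. Of 34 replication-dependent histone genes 7 fell and 3 rose (median log2 -0.40). A share of all reads was taken over histone genes picked by symbol among all genes, not over this list. With shCHD4#1 it was 0.826 and 0.851 percent in the libraries of the first kind and 0.889 percent in that of the second. In the controls it was 0.818 and 0.858 percent in the libraries of the first kind and 1.16 to 1.29 percent in those of the second. Without shScramble replicate 1 the falls numbered 19, without replicate 2 they numbered 16, without shCHD4#1 replicate 2 only 1, and 4 without shCHD4#1 replicate 1 or shScramble replicate 3, 4 or 5. Within the first kind 0 fell and the median log2 was -0.02. Within the second, which has 1 shCHD4#1 library, the median log2 was -0.61. With the replicate number as a block 3 fell, and with library kind as a term 8 fell and 3 rose. Of the rises, H2BC14 measured 281, 224 and 253 against 35.0 to 88.3 (log2 2.28, adjusted p = 7.53e-05) and H4C4 rose by 1.66. Histone genes are near-identical copies that can share reads, so single values are uncertain.

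Of 33 HOX genes, which set position along the body axis, 13 fell and 2 rose (median log2 -0.43, against 0.02 with shCHD4#2). HOXA5 fell by 2.21, at a mean of 1.87 with shCHD4#1 and 11.9 in the controls, which rests on few reads. It was not called in the authors' deposited table (adjusted p = 0.092). HOXA3 fell by 1.55, at a mean of 32.0 against 93.2. HOXA5 and HOXA3 overlap on 1 strand in the annotation, so they can share reads. HOXD13, the most posterior HOXD gene, measured 4300.4, 4921 and 4761 against 6535 to 7693 (log2 -0.62, SE 0.09, adjusted p = 0.000196) and lay lower still with shCHD4#2 (log2 -1.09). The rises of HOXD9 (log2 0.30, adjusted p = 0.0483) and HOXD10 (log2 0.28, adjusted p = 0.043) were not stable: with the replicate block 0 rose and 9 fell, and 1 or 0 rose in every fit that left out a library.

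p53 targets went both ways, 6 higher and 4 lower of 25, beside 12.9 and 15.5 percent of all genes. Beside TP53INP1, the ferredoxin reductase gene FDXR rose by 0.92, while the damage sensor gene DDB2 fell by 0.65. CDKN1A, the p53-induced CDK inhibitor, measured 44.3 on average against 30.2 and was not called (log2 0.52, adjusted p = 0.352). Without shCHD4#1 replicate 2 the list gave 3 rises and 2 falls, and without replicate 1 it gave 4 and 2. Of 22 apoptosis genes 2 rose and 5 fell, beside the same 12.9 and 15.5 percent of all genes. The risers were the BH3-only genes HRK, at 296, 335 and 431 against 66.0 to 98.1 (log2 2.09, SE 0.19, adjusted p = 7.16e-06), and BMF, at 5040.4, 5989 and 5745 against 2374 to 3439 (log2 0.99, adjusted p = 0.000841). BMF was at 1081 to 2117 with shCHD4#2, below every control. The survival gene BCL2L1 fell by 0.62. The apoptosis list had 3 falls without shCHD4#1 replicate 2 and with the replicate block.

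Sterol synthesis genes separated the hairpins. With shCHD4#1, 7 of 22 fell and 0 rose (median log2 -0.36), and with shCHD4#2 21 fell (median log2 -1.17). The direct test placed 18 members higher and 1 lower with shCHD4#1. Over all genes 20.3 percent fell with shCHD4#2, and the direct test placed 19.2 percent higher and 18.6 percent lower. SQLE, the squalene epoxidase, measured 12924, 18037 and 16088 against 26556 to 36448 (log2 -1.03, SE 0.16, adjusted p = 0.000255). PMVK, the phosphomevalonate kinase, measured 410.3, 277 and 364 against 637 to 891 (log2 -1.10, adjusted p = 7.36e-05). The sterol sensor partner INSIG1 was not called (log2 -0.50, adjusted p = 0.126), against -2.13 with shCHD4#2. With the replicate block 2 members fell, and HMGCS1 and FDPS, called without it at 0.0102 and 0.0106, had adjusted p = 0.0733 and 0.0584. When shCHD4#1 replicate 1 was left out, 3 fell and 1 rose, and HMGCS1 had adjusted p = 0.0632.

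Immediate early and AP-1 genes also differed between the hairpins, 8 of 20 lower and 0 higher with shCHD4#1 (median log2 -0.32) beside 7 higher and 1 lower with shCHD4#2 (median log2 0.28). The direct test called 12 members lower and 1 higher with shCHD4#1, beside 18.6 and 19.2 percent of all genes. Over all genes 17.5 percent rose and 20.3 percent fell with shCHD4#2. The AP-1 subunit gene FOSL2 fell by 1.41, the signalling antagonist gene SPRY2 by 2.01 and the zinc finger gene KLF6 by 0.98. Without shCHD4#1 replicate 1, 5 fell and 1 rose, and without replicate 2, 4 fell; 1 member rose without shScramble replicate 1 or 4. Of 35 cytosolic ribosomal protein genes 13 fell and 0 rose with shCHD4#1, and 2 fell and 1 rose with shCHD4#2. RPL5, a part of the complex that binds MDM2, measured 16383, 16627 and 17954 against 26216 to 35832 (log2 -0.91, SE 0.12, adjusted p = 8.28e-05) and was not called with shCHD4#2 (log2 0.11, adjusted p = 0.473). The count of falling ribosomal genes was 5 with the replicate block, 5 without shCHD4#1 replicate 2, 6 without shCHD4#1 replicate 1 or shScramble replicate 3, and 7 without shScramble replicate 4 or 5. It was 14 without shScramble replicate 2, 17 without replicate 1 and 22 with library kind as a term.

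Interferon and antigen presentation genes were mixed, 6 higher and 5 lower of 25, beside 12.9 and 15.5 percent of all genes. HLA-C, which presents peptides, measured 1006, 1607 and 1410.1 against 474 to 765 (log2 1.05, SE 0.19, adjusted p = 0.000944), with close paralogues that can share its reads, and STAT2 rose by 0.63. IFI44, an interferon-induced gene, fell by 0.77 and DDX58, the RNA sensor RIG-I, by 0.74. Without shCHD4#1 replicate 2 the list gave 4 rises and 3 falls, and 3 fell also without shScramble replicate 3 or 5 and with library kind as a term. Of 27 glycolysis and hypoxia genes 3 rose and 7 fell, among them the muscle phosphofructokinase gene PFKM (log2 -1.05, SE 0.11, adjusted p = 1.49e-05). Of 34 mesenchymal and matrix genes 4 rose and 7 fell, beside the same 12.9 and 15.5 percent of all genes. The membrane protease gene MMP14 fell by 1.13 and the fibrillin gene FBN2 by 1.29, whereas the collagen gene COL16A1 rose by 0.76. That list gave 2 rises and 3 falls without shCHD4#1 replicate 2.

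**Figure D4:**
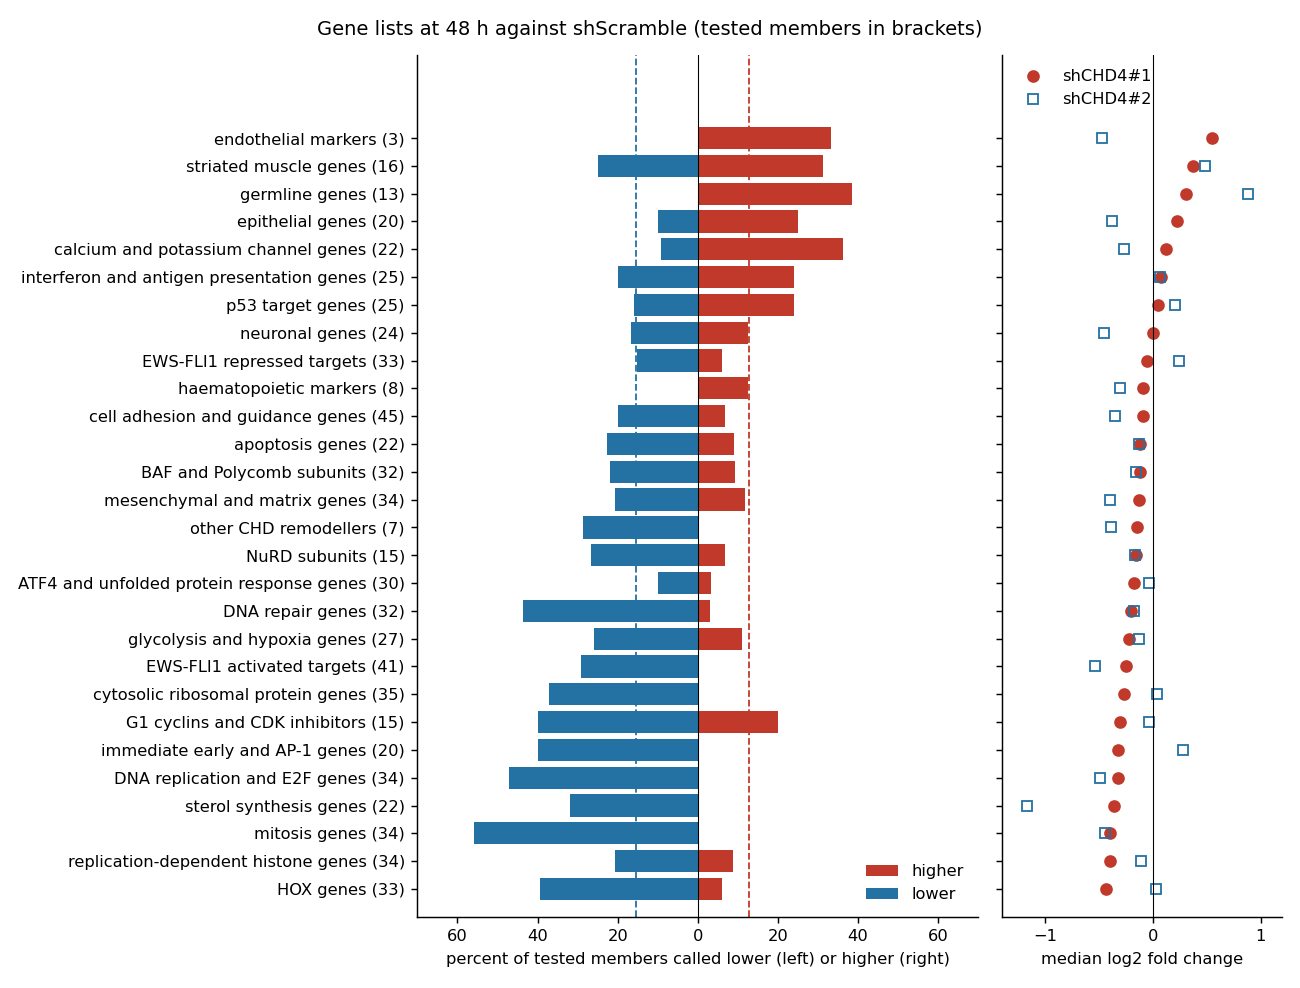
Left, the percent of tested members of 28 gene lists called lower or higher with shCHD4#1 at 48 h, with dashed lines at the 15.5 and 12.9 percent of all genes. Right, the median log2 fold change of each list with shCHD4#1 and shCHD4#2, which share their controls. Mitosis and DNA replication genes have the highest shares of falls with shCHD4#1, 19 and 16 of 34.

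Markers of blood and vessel cells gave few calls. Of 8 haematopoietic markers tested, HBA1, a globin gene with a near-identical copy, was called higher (log2 1.77, adjusted p = 0.0144), at 21.6, 72.0 and 130.4 against 7.22 to 28, where 1 library overlapped the controls. The call was lost without shCHD4#1 replicate 2 (adjusted p = 0.0697) or 3 (adjusted p = 0.0945). The T cell gene CD3E stood at 0 to 0.988 with shCHD4#1 and 0 to 1.09 in the controls, and PTPRC at 22.4 to 39.9 and 40.1 to 48.4. The summed level of 13 haematopoietic markers was 7449 to 10131 with shCHD4#1 and 9822 to 12106 in the controls. That of 9 endothelial markers was 1706 to 1996 and 1138 to 1355. Most of that sum was EGFL7, at 1608, 1880 and 1659 against 1047 to 1282 (log2 0.55, adjusted p = 0.00118, and 0.07 in the second library kind alone), while CDH5 was not called (log2 -0.04, adjusted p = 0.939) and the vessel-defining PECAM1 was at 3.32 to 13.6 and 3.73 to 6.54. The part of such cells in the results was not tested.

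At 24 h, in libraries that share none with 48 h, shCHD4#1 gave 1095 rises (5.21 percent) and 1290 falls (6.14 percent). Of the rises 947 were called at 48 h too, 86.5 percent of the 24 h list and 35.0 percent of the 48 h list, and of the falls 1182, 91.6 and 36.3 percent. None was called in opposite directions. For the 24 h rises the median log2 was 0.99 at 24 h and 1.14 at 48 h, and for the 24 h falls -0.57 and -0.72. The fold changes at both times had a Pearson r of 0.858 over 21025 genes, which share the cell lines. Of the 12 largest rises 12 were already called at 24 h (log2 2.36 to 4.14), and of the 12 largest falls 10 (log2 -0.94 to -2.56 over the 12).

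The test of the change in fold between the times called 1 gene (0.00476 percent), with 881 at an unadjusted p under 0.05. That gene was NUDT1, which clears oxidised nucleotides. It measured 518, 452 and 524 with shCHD4#1 at 48 h and 1098 to 1250.4 in the controls (log2 -1.24, SE 0.09), against -0.44 at 24 h, a difference of -0.80 (adjusted p = 0.0496). The call was lost with the replicate block within time (adjusted p = 0.0883), with a pseudocount of 5 and without a filter. It was also lost with only the shScramble and shCHD4#1 libraries of both times. Over the 8 fits that each left out 1 library of 48 h the difference ranged from -0.84 to -0.73. The call was lost in 7 of these fits, all but that without shCHD4#1 replicate 1. No library of 24 h was left out in this way.

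**Figure D5:**
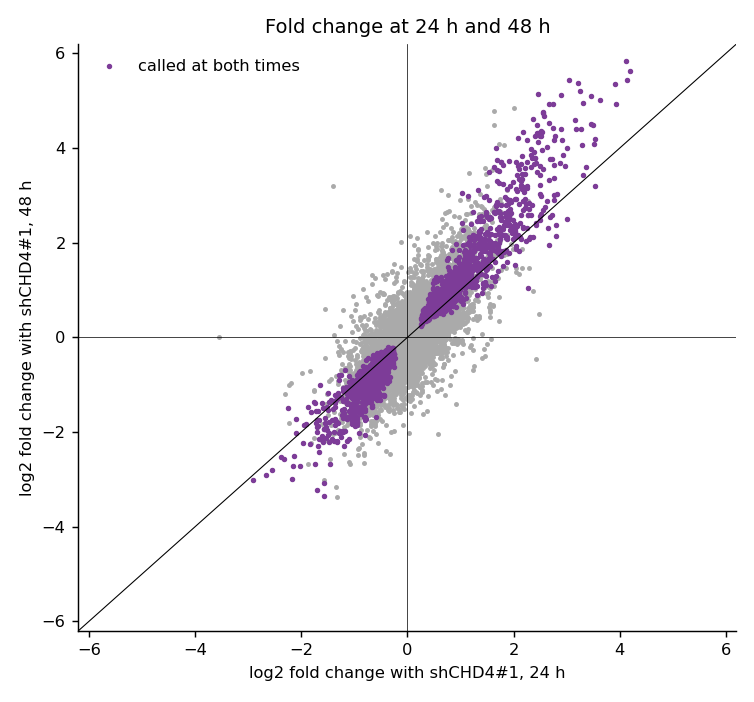
Log2 fold change with shCHD4#1 against shScramble at 24 h and at 48 h, 1 point per gene, with the line of equal values. Purple points are genes called at both times. The 12 largest rises lie above the line, but they were picked by their 48 h values. The test of the times called 0 genes with a higher fold change at 48 h.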

How the data were processed

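The deposited values are total RNA-seq read counts per gene divided by 1 size factor per library, a signal scaled by the authors with DESeq2. Per the labels' protocols, RNA was column-purified with DNase and sequenced in paired ends from a stranded total RNA kit. Per the submitters' processing notes, the tools were HISAT2 2.1.0 and featureCounts 1.6.0, with DESeq2 1.34.0, FastQC 0.11.7 and SAMtools 1.7, and the build GRCh38. Annotation release and strand setting: not given in the sources used here. Whole reads were recovered for 100.0 percent of values (tolerance 0.02). The authors' deposited table of log2 fold changes and p-values was used only as an alternative.

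All 14 libraries of 48 h (4 groups) were fitted with limma 3.58.1 (limma-trend, R 4.3.3) on log2(value + 1) for 21025 of 35488 genes, those whose mean over 28 libraries reached 10. A fold change on this scale understates the change of low genes. Calls have a Benjamini-Hochberg adjusted p under 0.05. Times were compared in 1 fit of 28 libraries, and the hairpins were also compared at 24 h, an alternative chosen after seeing the data. edgeR 4.0.16 and DESeq2 1.42.0 on recovered reads were alternatives, and the fitting script was tested on simulated data. The labels call the replicates biological, without saying what separates them, so p-values measure the spread between these samples. Deviations of same-numbered shCHD4#1 and shScramble libraries correlated at 0.695, 0.187 and 0.462 over 14216 genes. Pairs of other numbers ranged from -0.599 to 0.596, the highest within a library kind. That highest value was shCHD4#1 replicate 3 with shScramble replicate 4, above its 0.462 with replicate 3. These values therefore do not show that the numbers pair the samples. A fit with the replicate block was run as an alternative, over all 14 libraries of 48 h. The shFLI1 libraries among these had 0.339 to 0.356 percent processed pseudogenes, as in the second kind, also in replicates 1 and 2. The blocks of replicates 1 and 2 therefore mix the kinds, which limits this check. The fit with library kind as a term left shFLI1 out.

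Named genes are CHD4, FLI1 and EWSR1, the 12 largest rises and 12 largest falls without overlap of groups and with a mean of at least 100, the 6 of each with the smallest adjusted p at a mean of at least 1000, up to 4 called members of each of 28 lists, and the 5 largest differences between hairpins or times in each direction. Lineage markers, overlapping genes, CHD3, SYCP2, STAG3, CCND1, INSIG1, CDKN1A, HOXD9 and HOXD10 were added after their values were seen. The comparison and the lists were chosen with earlier results of these data known.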

Additional observations from a re-analysis of the deposited data

Results flagged for a closer look

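In 5 of the 145 named genes 1 of the 5 shScramble libraries of 48 h stood apart from the others by Dixon's test. Chance does this in about 1 in 20 groups, and the count is not above that rate. AC129926.2, among the largest rises, measured 28.6 in replicate 1 and 3.73 to 6.54 in the others. MISP measured 63.9 in replicate 2 and 27.5 to 33.0 in the others, and TSPEAR-AS2 8.25 in replicate 2 and 19.3 to 25 in the others. HDAC1 measured 5074 in replicate 1 and 6414 to 6770.1 in the others, and XPC 892 in replicate 5 and 976 to 997 in the others. For NUDT1 the fold change with shCHD4#1 differed between the times by -0.80 on the log2 scale, from -0.44 at 24 h to -1.24 at 48 h, by limma's test of the difference itself (adjusted p = 0.0496). With the replicate block within time the call was lost.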

How the results depend on the processing

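Against 2707 rises and 3258 falls with shCHD4#1, fits that left out 1 replicate gave 1684 to 2842 rises and 2015 to 3646 falls, lowest without shCHD4#1 replicate 2. The second library kind alone gave 2367 and 3203, library kind as a term 3182 and 3747, and the first kind alone 604 and 611, while the authors' deposited table had 617 and 331, and a mean of at least 100 gave 1764 rises; each kind alone has fewer samples, the last setting fewer genes, and in the authors' deposited values 60.9 percent of unadjusted p-values are exactly 1. The replicate block gave 2288 rises and 2648 falls, and 134 of 140 called named genes were called with it, all but HMGCS1, FDPS, CHD2, ATF4, PDIA4 and AC097512.1. Beside the list counts already given, the block moved the falls of BAF and Polycomb genes from 7 to 4, of other CHD genes from 2 to 1 and of ATF4 and unfolded protein response genes from 3 to 1, and the rises of the last from 1 to 2, of EWS-FLI1 activated targets from 0 to 1, and the falls of haematopoietic markers from 0 to 1. It changed no other call of a named gene. Without a filter the rises numbered 3328 and the falls 3058. The hairpins differed in 7963 genes at 48 h and in 2022 at 24 h. The 1 gene that differed between times became 0 with a pseudocount of 5, without a filter and with the replicate block within time. It also became 0 with only the shScramble and shCHD4#1 libraries of both times. When 1 library of 48 h was left out, 0 to 3 genes differed, at 508 to 1184 genes with an unadjusted p under 0.05. CHD4 kept its direction and call in every setting. Of 140 called named genes, 128 were called in all 8 fits that left out 1 replicate, with no change of direction. Fewer held elsewhere: the first library kind alone called 78 of the 140, and the authors' deposited values called 75. Of the calls in those deposited values, 603 of 617 rises and 290 of 331 falls were at least 2-fold. DESeq2 on recovered reads called 2953 rises and 3656 falls, of which 1045 and 672 were at least 2-fold. The authors' calls may thus follow an unlike criterion, and the 75 is not a like count. The first kind alone lost AC007923.1 and AC129926.2 among the largest rises. Among the largest falls it lost EMILIN3, AC021851.2, ARHGEF5 and C1QL1. RYR1, SCG2, DGKG and SPRY2 were among the other genes lost there. Counting error is small at these depths for abundant genes, while control values under about 10 rest on few reads.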
